A study of Mus musculus with 6 samples.

Results

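The Ifit genes described here are Ifit1, Ifit2, Ifit3 and Ifit3b, which lie side by side on chromosome 19 of the mouse. They were selected on their measured fold changes in these same libraries, having been lower in the knockout cells while most other interferon genes were higher. They are 4 of the 28293 genes in the count files, and all 4 passed the low-count filter that left 15081 genes for testing. The direction of their difference between the groups therefore chose them and is given as a description with no test. The libraries are poly(A)-selected RNA-seq libraries of a line of mouse dermal fibroblasts, 3 of the wild type (WT) and 3 labelled Lap2alpha KO (KO). LAP2alpha, a product of Tmpo, is a soluble nuclear partner of lamins A and C. No treatment, interferon or infection is named for either group, and both were grown in the same medium with fetal calf serum. The labels do not say how the knockout was made, whether it is a clone, or whether replicates came from separate cultures, so a p-value covers no more than the scatter among these 6 libraries, and differences between lines cannot be told apart from loss of LAP2alpha.

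IFIT proteins (interferon-induced proteins with tetratricopeptide repeats) are cytoplasmic antiviral proteins whose genes are switched on by type I interferon and, directly, by the transcription factor IRF3 after viral RNA is sensed. IFIT1 binds RNA whose cap lacks methylation of the first nucleotide, as found on some viral RNAs, and hinders its translation. Interferon acts through its receptor, the kinases JAK1 and TYK2 and a transcription factor complex that contains IRF9 and binds a DNA element called the interferon-stimulated response element.

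The libraries held 22159339 to 27281473 counts. Tmpo, the gene that encodes all LAP2 forms, stood at 254, 249 and 252 CPM (counts scaled to a library total of 1000000) in WT and 135, 122 and 131 CPM in KO (log2 fold change −1.04, SE 0.05, edgeR adjusted p = 4.9e-08). Its count does not separate the alpha form. Of all tested genes 75.1% were called, meaning an edgeR adjusted p under 0.05, with 37.7% higher and 37.5% lower in KO. Of 11 fibroblast markers 9 rose, led in level by the collagen genes Col1a2 (1788 to 10955 CPM) and Col1a1 (962 to 4883 CPM), while Thy1 fell (379 to 238 CPM) and Fn1 was not called (1405 to 1359 CPM), and their sum was 7260 to 7930 CPM in WT and 24100 to 25600 CPM in KO. The summed markers of other cell types were low and did not overlap between the groups. Endothelial markers summed to 1.5 to 1.94 CPM in WT and 4.50 to 4.53 CPM in KO, melanocyte markers to 1.17 to 2.98 and 0.367 to 0.905 CPM, and keratinocyte markers to 6.63 to 8.39 and 4.49 to 6.27 CPM. Few of them were tested. Of 5 endothelial markers 2 were tested, 1 called higher and 1 lower in KO. Of 5 melanocyte markers 1 was tested and of 6 keratinocyte markers 2, all called lower. The part of the marker differences in the results below was not tested.

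In GENCODE M21 (GRCm38) the genes are on the plus strand of chromosome 19 in the order Ifit2 (34550694 to 34576419), Ifit3 (34583531 to 34588731), Ifit3b (34607970 to 34613401) and Ifit1 (34640871 to 34650009). Their exons overlap no exon of another gene, so a counting that ignored strand would add no reads from an annotated exon on the opposite strand. Between them, on the minus strand, lie Ifit1bl1 (34592891 to 34601956) and Ifit1bl2 (34617049 to 34640743). Ifit3 and Ifit3b have coding sequences of the same length, 1209 bases, which are 99.1% identical and differ at 11 bases. The other pairs among the 4 genes are 60.8 to 64.3% identical over their aligned coding bases. Of the distinct stretches of 75 bases in the Ifit3 transcript, 41.1% also occur in Ifit3b, and 35.7% of those of Ifit3b occur in Ifit3. Ifit2 shares none with any other annotated gene and Ifit1 shares 5.19%, with Ifit1bl2. Reads or read pairs wholly within sequence shared by Ifit3 and Ifit3b cannot be assigned to either by sequence. How many there are depends on read length, which was not taken into account. How the authors counted such reads is not given in the sources used here, so the separate levels of that pair are uncertain. The longest coding run with no difference between Ifit3 and Ifit3b is 329 bases. Coding bases 214 to 288 of both genes hold 4 of the 11 differences, the most in any 75 bases (capitals mark the differing bases).
Ifit3: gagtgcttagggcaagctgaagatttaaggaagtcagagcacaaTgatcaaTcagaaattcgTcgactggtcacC
Ifit3b: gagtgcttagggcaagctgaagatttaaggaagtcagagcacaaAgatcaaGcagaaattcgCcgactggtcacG

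Promoter sequences are shown because the 4 genes are known interferon targets and were lower together. They come from RefSeq (GRCm38.p6), are given 5′ to 3′ on the plus strand and end just before the first annotated transcript start (RefSeq or GENCODE). Capitals mark matches, on either strand, to GAAA followed by any 2 bases and GAAA, the core of the interferon-stimulated response element. The Ifit2 stretch is chr19:34550574-34550693, that of Ifit3 chr19:34583363-34583528, that of Ifit3b chr19:34607759-34607956 and that of Ifit1 chr19:34640751-34640870.
Ifit2: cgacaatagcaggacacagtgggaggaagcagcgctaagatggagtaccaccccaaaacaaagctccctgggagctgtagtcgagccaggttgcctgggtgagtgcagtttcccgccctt
Ifit3: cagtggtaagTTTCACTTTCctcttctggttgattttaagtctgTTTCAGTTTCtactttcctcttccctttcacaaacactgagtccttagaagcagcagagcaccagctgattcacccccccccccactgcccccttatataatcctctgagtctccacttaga
Ifit3b: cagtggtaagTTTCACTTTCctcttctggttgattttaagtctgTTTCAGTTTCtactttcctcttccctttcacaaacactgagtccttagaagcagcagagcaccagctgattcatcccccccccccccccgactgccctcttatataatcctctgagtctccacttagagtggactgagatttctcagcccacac
Ifit1: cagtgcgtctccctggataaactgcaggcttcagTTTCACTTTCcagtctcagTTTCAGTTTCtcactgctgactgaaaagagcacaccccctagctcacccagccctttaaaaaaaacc

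Ifit3, Ifit3b and Ifit1 each had 2 matches, with the same letters, TTTCACTTTC and TTTCAGTTTC, in the same order. Windows from 250 bases before to 50 after the start held a match for 3.99% of the 27025 genes in the promoter table and 2 or more matches for 0.266%. Neither RefSeq window of Ifit2 held these letters, which says only that they are not in those windows. The pair of matches before Ifit1 also lies in the window of Ifit1bl2, which starts nearby and runs the other way. Among tested genes of the interferon pathway list described below, 25 of 68 with a promoter in the table held a match (36.8%), against 3.76% of all tested genes. In that list 13.2% held 2 or more, against 0.339% of all tested genes. A match was held by 23 of the 55 list genes called higher in KO and by 1 of the 5 called lower.

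Ifit2 stood at 116, 108 and 117 CPM in the WT libraries and at 58.5, 52.8 and 48.3 CPM in the KO libraries. Every KO library was under every WT library, with a log2 fold change of −1.17 (SE 0.07), or 2.25-fold lower. Ifit3 stood at 128, 134 and 135 CPM in WT and at 61.4, 62.0 and 66.7 CPM in KO, with no overlap and a log2 fold change of −1.14 (SE 0.06), or 2.20-fold lower. Both genes were thus lower in KO by more than a factor of 2.
Ifit3b, the near-identical neighbour of Ifit3, stood at 33.8, 36.2 and 34.8 CPM in WT and at 22.6, 21.5 and 24.1 CPM in KO. The groups did not overlap, and the log2 fold change was −0.70 (SE 0.07), or 1.62-fold lower. Ifit1, whose protein recognises undermethylated caps, stood at 28.3, 32.0 and 36.4 CPM in WT and at 22.2, 20.9 and 22.5 CPM in KO. Its log2 fold change was −0.64 (SE 0.09), or 1.55-fold lower, and its groups came closest, with WT replicate 1 at 28.3 CPM and KO replicate 3 at 22.5 CPM. Its WT libraries were also the most spread of the 4 genes, with a coefficient of variation of 12.6% against 2.95 to 4.14% for the other members in WT. The KO values lay wholly under the WT values for 34.6% of all tested genes, and the groups were apart in either direction for 76.8%; since this contrast chose the members nothing is read from their count. Summed over the 4 genes, the level was 306, 310 and 323 CPM in WT and 165, 157 and 162 CPM in KO. The sum of Ifit3 and Ifit3b was 167 ± 4.79 CPM in WT and 86.1 ± 4.07 CPM in KO (SD, n = 3), or 1.94-fold lower. That ratio is of CPM by library totals, while the fold changes of single genes come from the edgeR fit with TMM scaling. The 2 kinds of fold are thus not on the same scale. The sum of the pair does not depend on how counted reads were divided between them. It would change if shared reads were dropped or counted for both genes. In bulk RNA, fewer cells with a transcript and less transcript per cell cannot be told apart.

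**Figure D1:**
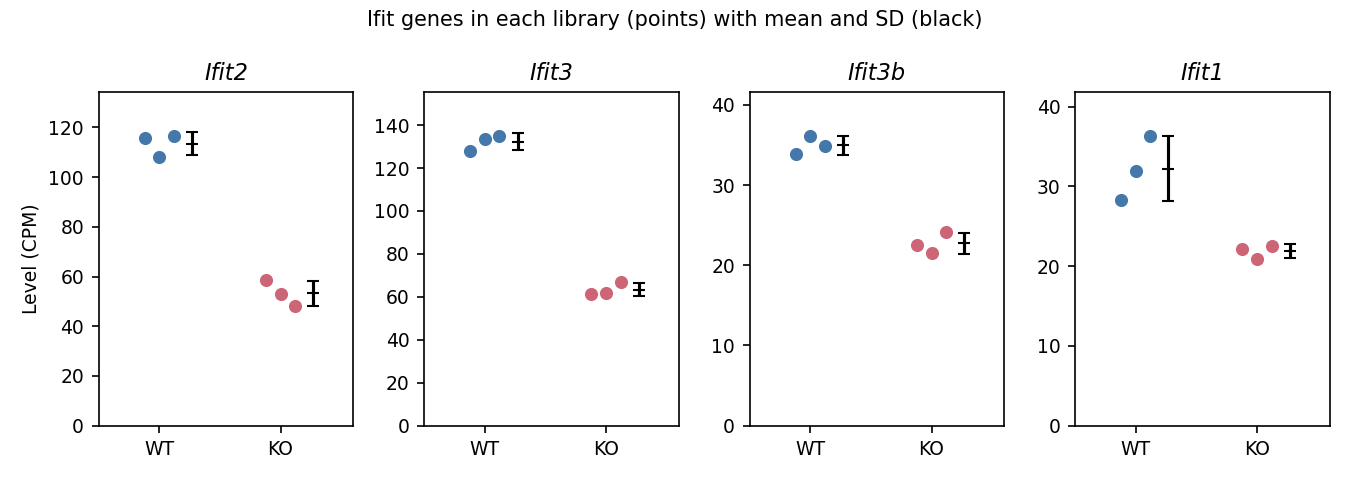
Level in CPM (vertical axis, from 0, a separate scale in each panel) of Ifit2, Ifit3, Ifit3b and Ifit1 in the 3 WT (blue) and 3 KO (red) libraries; points are libraries and black marks the mean with its SD. In each panel the KO points lie under the WT points, with the narrowest gap for Ifit1 (28.3 against 22.5 CPM).

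As CPM per kilobase of exonic sequence (RPKM), Ifit3 was the most abundant member in every library, at 75.8 ± 2.23 in WT and 36.3 ± 1.66 in KO (SD, n = 3). Ifit2 followed at 28.9 ± 1.20 and 13.6 ± 1.30 RPKM. Ifit3b stood at 17.5 ± 0.59 and 11.4 ± 0.65 RPKM, and Ifit1 was lowest at 12.1 ± 1.52 and 8.24 ± 0.32 RPKM. As deposited, the order Ifit3, Ifit2, Ifit3b, Ifit1 held in both groups, and no neighbours in that order overlapped within a group. They came closest in KO, where the lowest Ifit2 library had 12.3 RPKM and the highest Ifit3b library 12.1 RPKM. The annotated exonic length of Ifit2, 3927 bases, includes exons of a second short transcript, which lowers its value per kilobase. The place of Ifit3b depends on how reads shared with Ifit3 were counted. If reads from the shared 75-base stretches had been dropped, and levels were scaled up for the unshared share, Ifit3b would stand at 27.2 ± 0.92 RPKM in WT, overlapping Ifit2, and at 17.7 ± 1.00 RPKM in KO, above Ifit2 in every library. Ifit3 would stay highest and Ifit1 lowest.

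The 4 genes did not differ between the groups by the same amount. The ratio of Ifit3 to Ifit1 counts was 4.52, 4.18 and 3.72 in WT and 2.77, 2.96 and 2.96 in KO. The ratio of Ifit2 to Ifit1 was 4.09, 3.38 and 3.21 in WT and 2.64, 2.52 and 2.14 in KO. In both ratios the KO libraries were all under the WT libraries, so Ifit2 and Ifit3 were lower relative to Ifit1. No test of the ratios was made, and they come from the libraries whose contrast chose the genes. For single genes the groups were apart in 76.8% of those tested, and no such share was computed for ratios. The ratio of Ifit3 to Ifit2 overlapped between groups, at 1.17 ± 0.07 in WT and 1.20 ± 0.17 in KO (SD, n = 3), and so did that of Ifit3b to Ifit1, at 1.10 ± 0.12 and 1.04 ± 0.03. Ifit3 to Ifit3b was 3.78 ± 0.09 in WT and 2.79 ± 0.08 in KO, a ratio that rests on how shared reads were assigned. Such ratios do not change with the scaling of a library. As a share of the summed RPKM, Ifit3 held 56.4 ± 0.55% in WT and 52.3 ± 1.67% in KO, and Ifit1 held 9.02 ± 0.86% and 11.9 ± 0.18%.

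**Figure D2:**
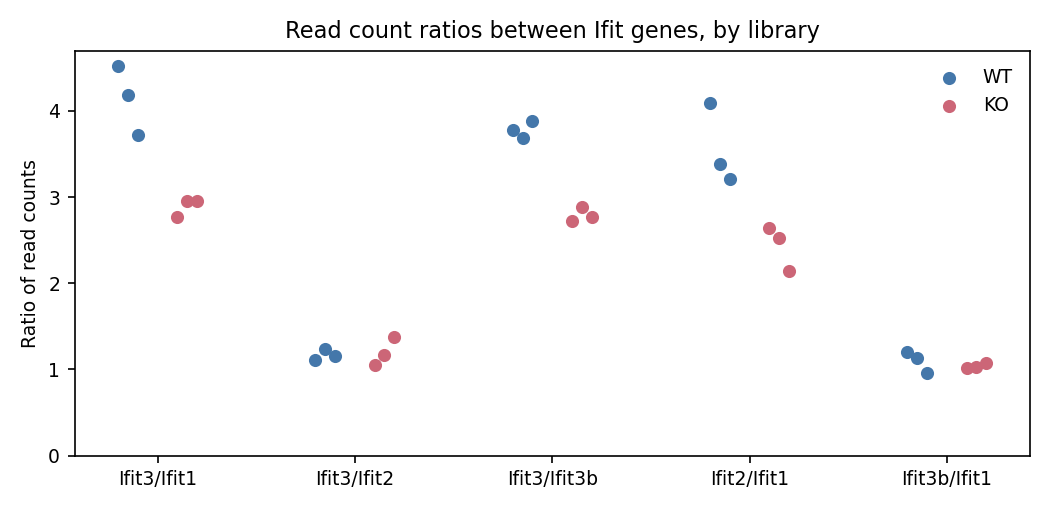
Ratio of read counts between pairs of Ifit genes (vertical axis, from 0) in each WT (blue) and KO (red) library. The ratios of Ifit3 and Ifit2 to Ifit1 and of Ifit3 to Ifit3b separate the groups, while Ifit3 to Ifit2 and Ifit3b to Ifit1 overlap.

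The other Ifit genes of the cluster were barely expressed. Ifit1bl1 had 18 to 30 reads a library, at 1.16 ± 0.13 CPM in WT and 0.829 ± 0.14 CPM in KO (SD, n = 3). Its log2 fold change of −0.56 (SE 0.23) was just short of the threshold, with an edgeR adjusted p that rounds to 0.05. When genes needed 1 CPM or more in 3 libraries its adjusted p in edgeR was 0.041 (−0.55), but it met that filter only through its WT libraries, since all KO libraries were under 1 CPM, so that call is not relied on. Ifit1bl2, which shares its upstream region with Ifit1, stood at 0.947 ± 0.18 CPM in WT and 0.782 ± 0.14 CPM in KO and was not called (−0.35, SE 0.26, edgeR adjusted p = 0.24). At these counts neither gene can be placed with or apart from the 4 members.

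Most tested genes within 5 Mb of the Ifit cluster were called lower in KO, though most of those within 1 Mb were not called lower. Of 96 other genes within 5 Mb of its ends in the count files, 52 were tested, of which 36 fell, 8 rose and 8 were not called. That is 69.2% lower and 15.4% higher, against 37.5% and 37.7% of all tested genes. The median log2 fold change of these neighbours was −0.84, against 0.01 for all tested genes with an annotated position. Ifit2 and Ifit3 differed from this median by −0.33 and −0.30 on the log2 scale, and 20 of the 52 neighbours had lower fold changes than each of them. Ifit3b and Ifit1 lay 0.14 and 0.20 above the neighbours' median, with 27 and 28 neighbours lower. The 52 neighbours include Ifit1bl1 and Ifit1bl2, and without them the median was −0.98. Ifit2 and Ifit3 then differed from it by −0.19 and −0.16, and Ifit3b and Ifit1 by 0.28 and 0.35. These comparisons set values side by side, and no test of the cluster against its neighbours was made.

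The nearest tested neighbours went both ways. Before the cluster, Lipa, which encodes lysosomal acid lipase and ends 23.2 kb from Ifit2, was not called at 80.1, 84.6 and 82.2 CPM in WT and 85.2, 80.7 and 79.7 CPM in KO (log2 fold change −0.09, edgeR adjusted p = 0.16). Fas, the death receptor gene 223 kb away, rose from 1.55 ± 0.25 to 2.89 ± 0.29 CPM (SD, n = 3; edgeR adjusted p = 0.002). Next to it lie Acta2, smooth muscle actin, and Stambpl1, a deubiquitinase gene, which changed in opposite directions. Acta2 rose 5.15-fold to 125 ± 9.93 CPM and Stambpl1 fell 3.42-fold to 13.2 ± 0.80 CPM, with edgeR adjusted p-values of 1.9e-09 and 5.7e-09. Ch25h, an interferon-inducible gene 75.5 kb from the cluster chosen after its value was seen, had 2 to 5 reads a library and was not tested.
After the cluster, the 4 nearest tested genes fell. Pank1, a pantothenate kinase gene 157 kb away, fell from 24.1 ± 2.06 to 12.7 ± 0.16 CPM (SD, n = 3; log2 fold change −1.01, edgeR adjusted p = 1.2e-06). Kif20b, a mitotic kinesin gene 272 kb away, stood at 138, 134 and 144 CPM in WT and 39.2, 37.1 and 38.7 CPM in KO. Rpp30, a subunit of RNase P, fell 4.79-fold and Ankrd1, a target of YAP, fell 6.75-fold, the largest decrease in the window among named genes with at least 5 CPM. The other large decreases were Cep55, which acts in cytokinesis (−2.23), the chromatin remodelling gene Hells (−2.20) and Slc35g1 (−2.14). Besides Acta2, increases at that level were Ermp1 (1.57), Cpeb3 (0.86) and Asah2 (0.61).

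The sides differed in their counts, a split made after the values were seen. Before the cluster 12 of 24 tested genes fell and 6 rose, with a median of −0.29. After it 24 of 26 fell and 2 rose, with a median of −1.31. Within 1 Mb of the ends, 3 of 9 tested genes were called lower, 2 called higher and 4 not called (median −0.35). That is 33.3% and 22.2%, against 37.5% and 37.7% of all tested genes, and the 9 include Ifit1bl1 and Ifit1bl2. The difference was not limited to the window, since 264 of 461 tested genes on the rest of chromosome 19 fell and 88 rose (57.3% and 19.1%), with a median of −0.46. Of chromosomes 1 to 19 and X, chromosome 19 had the lowest median log2 fold change, −0.48, and the next lowest was −0.17, on chromosome 4. Relative to the median of the other tested genes of chromosome 19, Ifit2 and Ifit3 were lower by a log2 difference of −0.69 and −0.66, and Ifit3b and Ifit1 by −0.22 and −0.16. The part of the chromosome-wide difference in the levels of the Ifit genes was not tested.

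**Figure D3:**
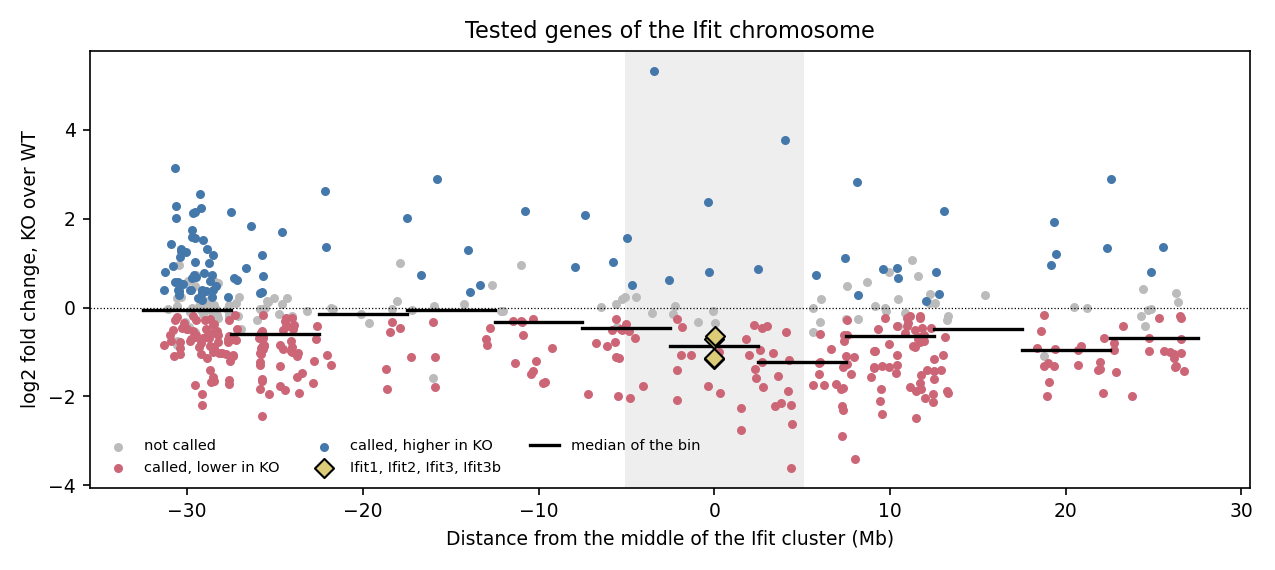
Log2 fold change, KO over WT, of the tested genes of chromosome 19 (vertical axis) by distance from the middle of the Ifit cluster in Mb (horizontal axis), with called genes higher in blue, called genes lower in red, genes not called in grey, the 4 Ifit genes as diamonds and 5 Mb bin medians as black lines. The window of about 5 Mb to each side is shaded, and the bin from 2.5 to 7.5 Mb after the middle has the lowest median (−1.23).

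The rest of the interferon pathway went mostly the other way. A list ordered by role had 88 tested genes, of which 73 rose, 6 fell and 9 did not pass; their median log2 fold change was 1.24. The direction of interferon genes was part of how the Ifit genes were chosen, so these counts are a description beside the 37.7% and 37.5% of all tested genes. Only 1 of the 88, Cgas, had a lower fold change than Ifit2 and Ifit3, and Cgas, Cxcl10 and Ptpn6, which was not called at under 1 CPM, were the 3 lower than Ifit3b and Ifit1. Ptpn6 was named after its value was seen. Of the interferon ligands, 3 were in the count files (Ifnb1, Ifne and Ifng), with at most 5 reads in any library and none tested.

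Receptors and their kinases were mostly higher (6 higher, 1 lower, 1 not called, median 0.48). The kinase gene Tyk2 stood at 13.2, 15.4 and 16.4 CPM in WT and 36.4, 42.6 and 40.6 CPM in KO (log2 fold change 1.33, edgeR adjusted p = 3e-07), and Jak1 (0.49) and the shared receptor chain Il10rb (1.11) rose. Jak2, which serves the interferon-gamma receptor and is also on chromosome 19, fell (−0.48). Among transcription factors 7 rose and 1 fell (median 1.09). Irf9, the DNA-binding part of the complex that drives Ifit genes after interferon, stood at 7.18, 8.55 and 8.31 CPM in WT and 29.9, 27.8 and 27.7 CPM in KO, a 3.36-fold rise (edgeR adjusted p = 2.6e-08). Irf1 (1.07) and Irf2 (1.26) also rose. Irf3, which can induce Ifit genes without interferon, had a mean of 18.8 ± 2.05 CPM in WT and 14.9 ± 0.72 CPM in KO (SD, n = 3), with no overlap, and fell by 0.42 on the log2 scale (SE 0.09, edgeR adjusted p = 0.0016).

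Nucleic acid sensing genes had 9 higher, 2 lower and 1 not called (median 1.21). Ddx58, the RNA sensor RIG-I, rose 3.27-fold from 12.2 ± 0.29 CPM and Ticam1, the adaptor of the receptor TLR3, rose 3.30-fold to 25.4 ± 1.02 CPM (SD, n = 3). Cgas, the DNA sensor, fell from 36.7 ± 2.98 to 15.3 ± 0.89 CPM (log2 fold change −1.33, edgeR adjusted p = 1.2e-07), and Tbk1, the kinase that activates IRF3, fell by 0.20 on the log2 scale (edgeR adjusted p = 0.0058; −0.12 with adjusted p = 0.06 under library totals alone).

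Antiviral effectors, the class to which IFIT proteins belong, had 32 of 37 tested members higher, none lower and 5 not called (median 1.27). Ifitm3, which blocks virus entry, rose 4.49-fold to 204 ± 9.14 CPM, and Ifi27 rose 3.44-fold to 69.2 ± 3.84 CPM (SD, n = 3). All 15 interferon-induced GTPase genes rose (median 2.94), among them Gbp2 (4.39), Gbp3 (4.04) and Gbp9 (3.66). Of the negative regulators 3 rose, 1 fell and 2 were not called, with Usp18 (2.57) and Socs1 (0.50) higher and the phosphatase gene Ptpn2 lower (−0.41). The chemokine genes split. Cxcl10 stood at 12.4, 15.6 and 15.5 CPM in WT and 8.03, 7.58 and 6.60 CPM in KO (log2 fold change −1.05, SE 0.11, edgeR adjusted p = 1.1e-05), while Ccl5 rose from 4.27 ± 0.72 to 10.7 ± 0.83 CPM. In its size and direction Cxcl10 lay between Ifit3 and Ifit3b. Immune cell markers, whose cells also express many of these genes, summed to 4.26 to 5.31 CPM in WT and 9.90 to 12.3 CPM in KO. Of 9 markers 5 were in the files and 3 were tested. Cd14 (0.80) and Csf1r (3.35) rose, and the other tested marker was not called. Ptprc, found on all white blood cells, had 1 read in WT and 0 in KO. The part of the immune markers in the differences of the interferon genes was not tested.

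**Figure D4:**
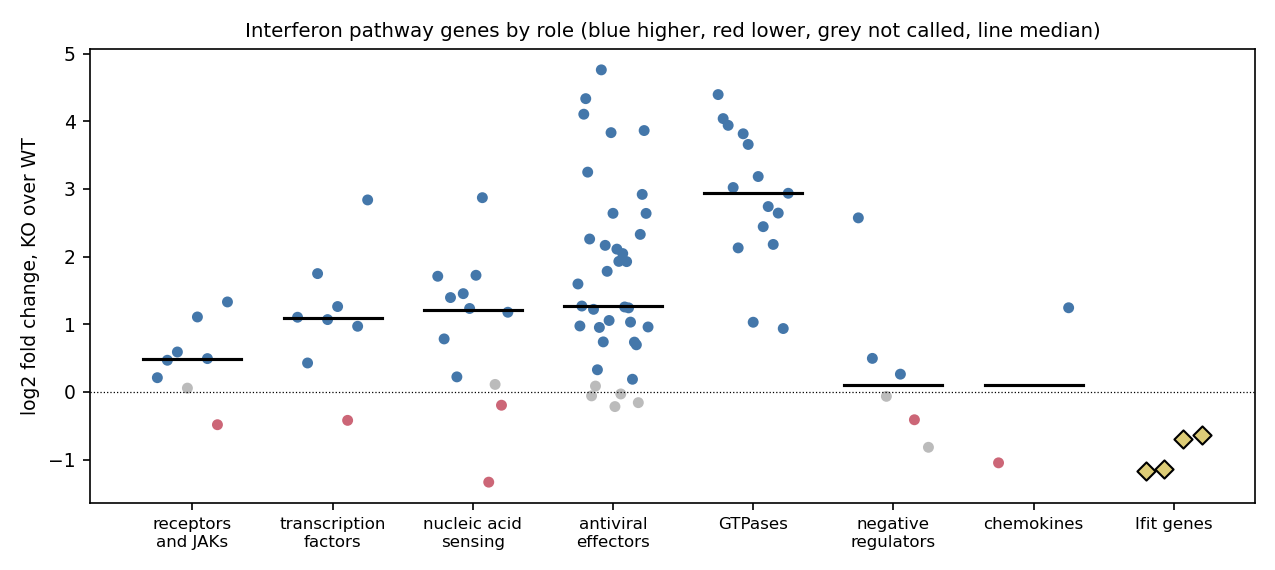
Log2 fold change, KO over WT (vertical axis), of tested interferon pathway genes by role and of the 4 Ifit genes (diamonds); blue is called and higher, red called and lower, grey not called, and lines are medians. Ifitm1 and Gbp4 had no reads in WT and are drawn at lower bounds (at least 27-fold and 15.4-fold higher) computed from a floor of 3 counts over the WT group; the Ifit genes, at −1.17 to −0.64, lie below the line at 0.

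Of 5 tested genes that methylate the mRNA cap and its first nucleotides or assist in it, 1 was higher, 1 lower and 3 not called. Rnmt, the cap guanine methyltransferase, was called higher (0.26, edgeR adjusted p = 0.0071; 0.19 and adjusted p = 0.054 without WT replicate 3). Cmtr2, which methylates the second nucleotide, was lower (−0.55, adjusted p = 7.7e-05). Cmtr1, which sets the mark on the first nucleotide whose absence IFIT1 recognises, stood at 5.42, 6.63 and 5.68 CPM in WT and 5.21, 6.56 and 6.21 CPM in KO and was not called (−0.06, SE 0.13). Ramac (−0.02) and Pcif1 (−0.07) were not called.

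The genes whose centred log2 CPM profile over the 6 libraries was nearest to the mean profile of the 4 Ifit genes, among 10032 candidates whose larger group mean was 5 CPM or more, were Hsp90b1, Nup93, Ckap2l, Mdc1 and Acad9. Their Euclidean distances were 0.0509 to 0.0633 log2 units, none lies on chromosome 19 and none is in the interferon list. Of the 15081 tested genes, 517 were on chromosome 19 and 88 in that list, so nothing is read from their absence here. The profile holds the group difference that chose the Ifit genes, so likeness to it is a description. The Ifit genes themselves lay 0.290 to 0.394 from their own mean profile. The chaperone gene Hsp90b1 stood at 1348, 1401 and 1433 CPM in WT and 785, 750 and 784 CPM in KO.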

How the data were processed

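Libraries were made with a directional kit after poly(A) selection, per the labels' protocols. The authors deposited raw read counts per Ensembl gene, 1 file per library. Reads were processed with STAR 2.7.10b and GRCm38, per the submitters' processing notes. The counting program, its annotation, its strand setting and its handling of reads with several matches are, for these files, not given in the sources used here. Symbols, positions and exonic lengths came from GENCODE M21, where 28230 of 28293 identifiers were found. KO was compared with WT over 6 libraries in edgeR 4.0.16 (R 4.3.3) with TMM scaling, filterByExpr, the quasi-likelihood test and Benjamini-Hochberg adjustment over all 15081 tested genes; fold changes are KO over WT. CPM use library totals. SE is the absolute log2 fold change divided by the square root of the quasi-likelihood F statistic. The members and gene lists were chosen with earlier results of these data known.

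Named genes are the Ifit genes, Tmpo, in each interferon role up to 3 called genes with the smallest p and each called gene that fell, the 4 nearest tested neighbours on each side, up to 5 largest increases and decreases among neighbours with at least 5 CPM, the 5 nearest profiles (from log2 of scaled CPM plus 1) and the cap methylation list. A gene that this rule names among the antiviral effectors is not reported here. On simulated counts with 200 changed genes among 14831 that passed the filter, edgeR recovered 67.2% of 1.5-fold and 88.1% of 2-fold changes. Far fewer genes changed there than the 75.1% called in the real data, so these shares do not measure recovery in the real data. Coding sequences were aligned with Biopython 1.88. Alternatives were other scalings, filters and windows, DESeq2 1.42.0, limma-voom (limma 3.58.1), a replicate block and leaving out each library. Figures were drawn with matplotlib 3.10.9.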

Additional observations from a re-analysis of the deposited data

How the results depend on the processing

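Over 15 settings of scaling, filter, test, block and left-out library, the log2 fold change ranged from −1.23 to −1.09 for Ifit2, from −1.19 to −1.06 for Ifit3, from −0.76 to −0.62 for Ifit3b and from −0.74 to −0.56 for Ifit1. Measured against the median of the neighbours within 5 Mb, an alternative chosen after seeing the data, Ifit3b (0.14) and Ifit1 (0.20) changed sign and the median of the 4 genes was −0.0825; with Ifit1bl1 and Ifit1bl2 left out of the neighbours these were 0.284, 0.346 and 0.0636. Against the other genes of chromosome 19 the median of the 4 genes was −0.44, in place of −0.92. The counts of called neighbours, 36 lower and 8 higher, became 10 and 2 within 2 Mb and 3 and 2 within 1 Mb, where fewer genes were tested. The side before the cluster gave 12 lower and 6 higher, and the side after it 24 lower and 2 higher. Same-numbered libraries of the groups did not all deviate together (correlations 0.29, −0.13 and 0.25), so the numbers were not taken to pair them. With the replicate block, 36 neighbours were lower and 8 higher, and over all genes 5832 were higher and 5865 lower. The precision for Ifit1bl1 and Ifit1bl2 is limited by counts of at most 30 a library.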
